A study of Mus musculus with 8 samples.

Results

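The genes described here encode subunits and assembly factors of respiratory complex I, the NADH dehydrogenase of the mitochondrial inner membrane. They are the protein-coding genes whose symbol starts with Nduf in the GENCODE M21 annotation, 46 of the 24821 genes of the deposited table, and all 46 passed the filter on low values. RNA came from the epididymal fat pad, a white fat depot, of male C57BL/6 mice. The 4 knockout (KO) samples came from mice with Ccdc92, a coiled-coil protein gene, knocked out, and the 4 wild-type (WT) samples came from littermates of the same age. All animals, controls included, had spent 14 weeks on a high-fat diet (60% of energy as fat, with protein and carbohydrate at 20% each). The labels give neither the deleted part of Ccdc92 nor the tissues in which it was deleted, nor do they tie each library to its own animal. P-values therefore reflect sample-to-sample spread, of which a technical part cannot be told apart.

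Complex I takes electrons from NADH, passes them through a chain of iron-sulfur clusters to ubiquinone and pumps protons across the inner membrane. It is L-shaped: a matrix arm holds the redox centres, and a membrane arm holds the proton pumps. A few core subunits carry out catalysis, those of the matrix arm being encoded in the nucleus and those of the membrane arm in mitochondrial DNA, and many accessory subunits surround them. Assembly factors join the parts and are absent from the finished enzyme. In white fat, complex I serves adipocytes and the other cells of the tissue, and its genes are often followed as a readout of oxidative capacity.

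Reads assigned to genes numbered 23681088 to 33817478 per library. Ccdc92 had normalized counts of 54.1, 68.3, 106 and 99.2 in WT and 9.19, 5.13, 9.67 and 4.85 in KO, so each KO library was below each WT library (log2 fold change -3.34, SE 0.33, adjusted p = 0.000383). KO replicate 3 stood apart, with 18% of its reads in 4 hemoglobin genes against 0.233% to 1.75% in WT and 0.36% to 0.495% in the other KO libraries. WT replicate 4 held 368 normalized counts of the muscle gene Ckm and 233 of the brown fat gene Ucp1, against at most 3.67 and 32.1 in any other library. Other muscle and brown fat markers were mixed in this library. Among WT libraries, Acta1 (1691), Myh2 (33.71), Tnnt3 (16.85), Cidea (184) and Cox8b (140.45) were highest there and Mb (8.43) was lowest. Myh1, Mylpf, Myl1, Ppara, Lhx8, Dio2 (47.8) and Elovl3 (14) were within the range of the other WT libraries. The tissue label was checked on 12 adipocyte markers, whose sum ran from 491356 to 717653 in the WT libraries and from 1157192 to 1396654 in the KO libraries. Epididymis markers summed to 32217 to 108485 in WT and 10.9 to 1253 in KO, and macrophage markers to 133107 to 280445 in WT and 47163 to 73456 in KO. On each of these lists the sums of the WT and KO libraries did not overlap. These differences, that of the epididymis markers included, were therefore not confined to KO replicate 3 or WT replicate 4. In this bulk tissue, fewer cells of a type and less RNA per cell cannot be told apart.

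Most complex I genes were higher in KO. In limma 0 of the 46 fell, 0 had an unadjusted p under 0.05 in that direction, and edgeR and DESeq2 also called 0 lower. Of the 38 members other than Ndufaf genes, 30 rose and 8 did not pass, with a median log2 fold change of 0.47 (1.39-fold) and a range from -0.057 for Ndufa1 to 0.78 for Ndufb8. Of the 17798 genes tested, 41.7% passed, 20.2% as higher and 21.5% as lower, and the median log2 fold change over all of them was -0.0065. In 30 of the 38 every KO library was above every WT library, which held for 21% of all genes tested. Among the 8 Ndufaf assembly factors, 5 rose and 3 did not pass, with a median of 0.38. All values are log2 fold changes of the normalized count + 1, KO over WT, tested with limma, and the threshold was 0.05 on p-values adjusted by Benjamini-Hochberg.

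The 38 genes comprise 36 subunits of complex I and 2 genes, Ndufa4 and Ndufa4l2, whose names point to complex I while their proteins are not subunits of it. Of the 36, 29 rose: 13 of 16 in the matrix arm (median log2 fold change 0.51), 15 of 19 in the membrane arm (median 0.44) and Ndufab1, which sits in both arms. By class, 6 of the 7 nuclear core subunits rose (median 0.55) and 23 of the 29 accessory subunits (median 0.45). The difference between arms or classes was not tested.

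The count of 30 depended on the scaling and on which libraries entered. It was 16 with values scaled to library totals and 18 with totals that leave out hemoglobin. Of all 17798 genes tested, those called higher were 1893 and 2673 under these scalings, against 3592 with the deposited scaling. The count of 30 was 18 without WT replicate 3, 21 without WT replicate 1 and 26 without KO replicate 3. Without KO replicate 3 the median log2 fold change was 0.38. Over all genes tested in these fits, those called higher were 2707, 2984 and 2896. Without WT replicate 3, 9 matrix arm and 7 membrane arm subunits rose, and without KO replicate 3, 12 of each. With values scaled to library totals the median of all genes moved to -0.18, and that of the 38 genes to 0.30. With hemoglobin left out of the totals, these medians were -0.11 and 0.37. Both scalings shift all genes nearly alike, so they leave the distance between these medians almost as it was by construction. That distance was 0.48 with the deposited scaling, 0.43 with quantile normalization and 0.39 without KO replicate 3.

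**Figure D1:**
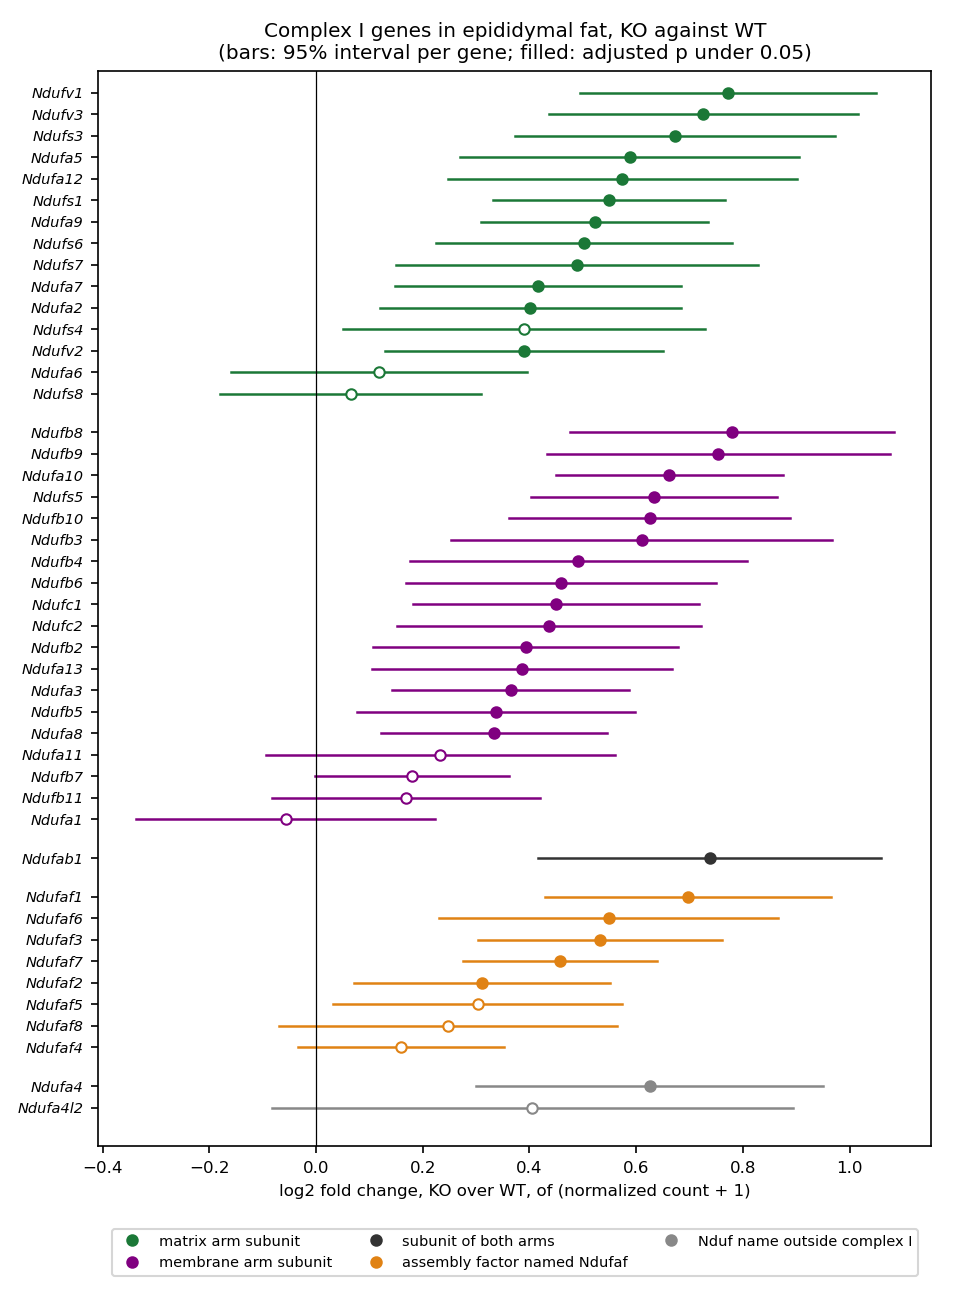
Log2 fold change, KO over WT, of the normalized count + 1 for 45 of the 46 Nduf genes, grouped by role, with 95% intervals per gene that are not adjusted for the number of genes. Filled circles passed at an adjusted p under 0.05. Only Ndufa1, at -0.057, lies below 0, and the highest value is 0.78 for Ndufb8.

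Because most members moved together, their promoters were searched for 4 motifs of factors known to bind promoters of respiratory genes, on both strands. Promoter windows of 300 bases, 250 before and 50 after the start site, came from RefSeq on GRCm38.p6 and matched 40 of the 46 members. GCGC, any 2 bases and again GCGC, an NRF1 motif, occurred in 11 of the 40 genes, of which 7 rose and 4 did not pass, in 28.6% of the 42 windows of members and in 6.22% of all 32851 windows. AAGGTCA, a half-site bound by ESRRA, occurred in 3 genes, all 3 of which rose, in 7.14% of member windows and in 4.72% of all windows. CCGGAAG, an ETS motif as bound by GABPA, occurred in 6 genes, 3 of which rose, in 14.3% of member windows and in 8.86% of all windows. AAGATGGCG, a YY1 motif, occurred in 6 genes, 4 of which rose, in 14.3% of member windows and in 1.4% of all windows. Matches stood both in genes that rose and in genes that did not, except for the few with AAGGTCA. Ndufb4 and Ndufs5 hold both an NRF1 match and AAGGTCA, Ndufs6 an NRF1 match and AAGATGGCG, and Ndufaf8 CCGGAAG and AAGATGGCG. A match is a description of letters, and no binding was measured here.

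The 250 bases before the start site are shown, 5′ to 3′ on the gene's own strand, for 4 genes picked after their values were seen to place a match beside the response. Capitals mark the match. Ndufv2 (chr17:66101560-66101809, minus strand) rose and holds 2 overlapping NRF1 matches that start 17 and 15 bases before the start site. Ndufb2 (chr6:39592315-39592564, plus strand) rose and holds the ESRRA half-site. Ndufaf4 (chr4:24897833-24898082, plus strand) did not pass and holds an NRF1 match. Ndufb8 (chr19:44555443-44555692, minus strand), with the largest rise, holds none of the 4 motifs.
Ndufv2: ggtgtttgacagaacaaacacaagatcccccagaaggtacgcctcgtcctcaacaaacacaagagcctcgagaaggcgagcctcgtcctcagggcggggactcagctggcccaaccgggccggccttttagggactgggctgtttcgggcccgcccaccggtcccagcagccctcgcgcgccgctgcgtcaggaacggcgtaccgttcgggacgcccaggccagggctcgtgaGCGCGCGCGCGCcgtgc
Ndufb2: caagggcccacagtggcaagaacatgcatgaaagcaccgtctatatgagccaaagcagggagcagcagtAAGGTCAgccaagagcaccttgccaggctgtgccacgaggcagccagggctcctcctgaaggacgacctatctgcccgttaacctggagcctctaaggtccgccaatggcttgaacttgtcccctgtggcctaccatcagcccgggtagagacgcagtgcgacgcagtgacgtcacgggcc
Ndufaf4: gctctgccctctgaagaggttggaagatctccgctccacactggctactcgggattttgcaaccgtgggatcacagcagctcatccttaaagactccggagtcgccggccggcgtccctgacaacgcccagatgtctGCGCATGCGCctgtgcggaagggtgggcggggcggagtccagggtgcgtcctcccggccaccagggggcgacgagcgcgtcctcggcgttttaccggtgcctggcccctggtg
Ndufb8: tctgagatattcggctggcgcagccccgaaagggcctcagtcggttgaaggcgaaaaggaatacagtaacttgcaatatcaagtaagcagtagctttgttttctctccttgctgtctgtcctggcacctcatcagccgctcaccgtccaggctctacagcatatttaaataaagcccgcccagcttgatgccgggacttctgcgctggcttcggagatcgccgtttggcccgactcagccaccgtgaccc

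The core of the matrix arm rose with 1 exception. Ndufv1 (chr19:4007384-4012806, minus strand, GRCm38), the subunit that binds FMN and oxidizes NADH, had normalized counts of 2719, 3358, 2755 and 3331 in WT and 4747, 4486, 5888 and 5698 in KO (log2 fold change 0.77, SE 0.12, adjusted p = 0.00182). Its lowest KO library was above its highest WT library, and KO replicates 3 and 4 were the highest. Ndufv2, the partner of Ndufv1 that carries an iron-sulfur cluster, had 1592, 1871, 1767 and 1825 in WT and 2220.1, 2047, 2876 and 2168 in KO (log2 fold change 0.39, SE 0.11, adjusted p = 0.0249). The groups did not overlap, and KO replicate 3 stood above the rest of its group. Ndufs1, which holds several of the clusters between the NADH site and the quinone site, had 2273, 2487, 2226 and 2514 in WT and 3400.3, 3005, 3898 and 3643 in KO (log2 fold change 0.55, SE 0.095, adjusted p = 0.00271). All 4 WT libraries lay close together, below each KO library.

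Other core subunits lie near the quinone site. Ndufs3, needed early in assembly of this part of the arm, had normalized counts of 1237, 1801, 1462 and 1684 in WT and 2330.4, 2218, 2845 and 2413 in KO (log2 fold change 0.67, SE 0.13, adjusted p = 0.00448). The groups were apart, and WT replicate 1 was the lowest. Ndufs7, which carries the last cluster before ubiquinone, had 1227, 1409.8, 1229 and 1480.3 in WT and 1608, 1533, 2360.5 and 2102 in KO (log2 fold change 0.49, SE 0.15, adjusted p = 0.0284). KO replicate 2 was only just above WT replicate 4. Ndufs8 (chr19:3908863-3912774, minus strand), an iron-sulfur subunit that sits beside Ndufs7, had 1407, 1430.0, 1454 and 1635 in WT and 1565, 1432, 1869 and 1366 in KO (log2 fold change 0.065, SE 0.11, adjusted p = 0.655). Here the groups overlapped: KO replicates 1 and 2 lay within the WT range, KO replicate 4 below it and KO replicate 3 above it. The 95% interval of its log2 fold change was -0.18 to 0.31, and its sign turned without KO replicate 3 (-0.026) and with values scaled to library totals (-0.11, or -0.042 with hemoglobin left out of the totals).

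Among the core subunits, the calls of Ndufs7 and Ndufv2 were lost in some fits that left out 1 library. Ndufs7 had an adjusted p of 0.0692 without WT replicate 1, 0.0763 without WT replicate 3, 0.0611 without KO replicate 3 and 0.0721 without KO replicate 4. Ndufv2 had 0.0616 without WT replicate 1 and 0.0585 without WT replicate 3. Without WT replicate 3 its log2 fold change was 0.39, as in the main test. Both also missed the threshold when scaled to library totals, at 0.0824 for Ndufs7 and 0.112 for Ndufv2.

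**Figure D2:**
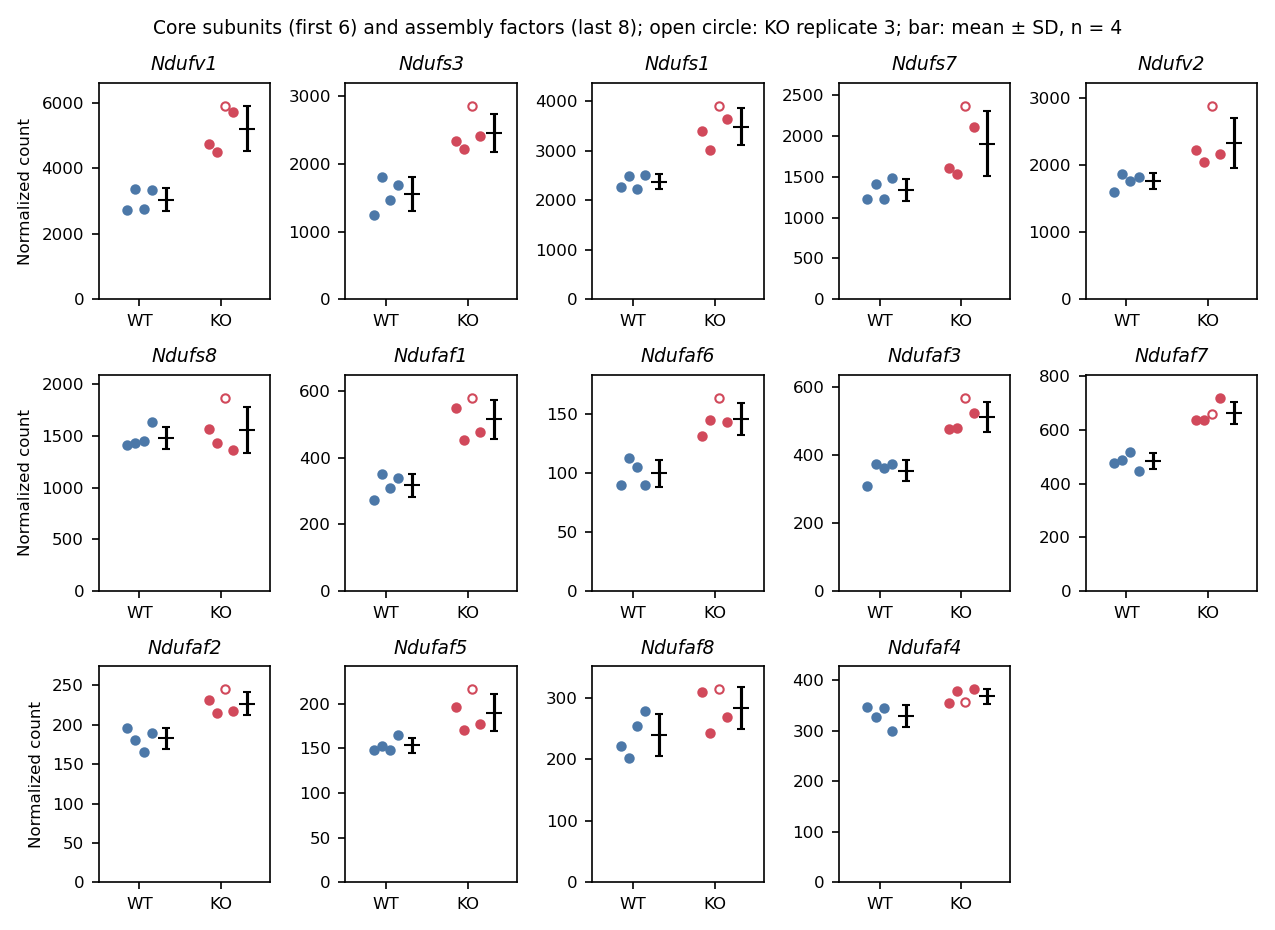
Normalized counts of 6 nuclear core subunits and the 8 Ndufaf assembly factors in each library, with mean ± SD (n = 4), each panel starting at 0. KO replicate 3 is drawn open: it is the highest library in all 6 core panels and in 6 of the 8 assembly factor panels, and the groups overlap for Ndufs8 and Ndufaf8.

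The largest rises among accessory subunits were in both arms. Ndufb8 (chr19:44548572-44555440, minus strand), a membrane arm subunit whose protein is widely used as a marker of assembled complex I, had normalized counts of 1939, 2396, 2014 and 2438 in WT and 3522, 3281, 4746 and 3615 in KO (log2 fold change 0.78, SE 0.13, adjusted p = 0.00253). Ndufb9, a membrane arm subunit of the LYR family that binds the acyl carrier protein, had 1607, 2335, 1981 and 2245 in WT and 3219, 2979, 4069.6 and 3465 in KO (log2 fold change 0.75, SE 0.14, adjusted p = 0.00371). For both genes, KO replicate 3 was the highest library and WT replicate 1 the lowest, with no overlap between the groups. Ndufab1, the mitochondrial acyl carrier protein, which occurs in both arms and also serves mitochondrial fatty acid synthesis, had 1147, 1593, 1193 and 1567 in WT and 2135, 2094, 2739.9 and 2159.9 in KO (log2 fold change 0.74, SE 0.14, adjusted p = 0.00408). Ndufv3, an accessory subunit bound next to the NADH site, had 1160.4, 1730.0, 1332 and 1440.1 in WT and 2175, 2248, 2658 and 2218 in KO (log2 fold change 0.73, SE 0.13, adjusted p = 0.00284). KO replicate 3 stood well above the other 3 KO libraries in both, and these 3 lay close together above all WT libraries. Ndufa10, a membrane arm subunit on the matrix side with the fold of a nucleoside kinase, had 2111, 2386, 2109 and 2237 in WT and 3313, 3081, 3851 and 3796 in KO (log2 fold change 0.66, SE 0.093, adjusted p = 0.00116). Ndufs5, a subunit of the membrane arm on its intermembrane space side, had 972, 1186, 1023 and 1205 in WT and 1763, 1581, 1897 and 1558 in KO (log2 fold change 0.63, SE 0.10, adjusted p = 0.00191). Neither showed overlap, and their calls held when any single library was left out, as did those of the other 4 genes of this paragraph.

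The 4 smallest rises that passed among accessory subunits were all in the membrane arm. Ndufa13, also known as GRIM-19, had normalized counts of 1425, 1628, 1633 and 1841 in WT and 2034, 1812, 2601 and 2117 in KO (log2 fold change 0.39, SE 0.12, adjusted p = 0.0346), and its KO replicate 2 was below WT replicate 4. Ndufa3, a small membrane protein, had 723, 833, 762 and 842 in WT and 997, 934, 1193 and 957 in KO (log2 fold change 0.36, SE 0.098, adjusted p = 0.017). Its groups did not overlap, and the gap between them was narrow. Ndufb5, another small membrane protein, had 992, 1142, 1085 and 1142 in WT and 1323, 1217, 1718 and 1294 in KO (log2 fold change 0.34, SE 0.11, adjusted p = 0.0424). Ndufa8, a cysteine-rich subunit of the intermembrane space side, had 1679, 1819, 1713 and 1884 in WT and 2209.8, 2214, 2585 and 1966 in KO (log2 fold change 0.33, SE 0.093, adjusted p = 0.02). The groups did not overlap in either gene, and WT replicate 1 was lowest in both.

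Each of these calls was lost in at least 1 fit that left out 1 library, and not always with a smaller fold change. Without KO replicate 4, Ndufb5 was at 0.37 (adjusted p 0.056), against 0.34 in the main test. Ndufa13 missed the threshold in 6 and Ndufb5 in 7 of the 8 fits that left out 1 library, with adjusted p up to 0.0835 and 0.0997, each time without WT replicate 1. For Ndufa13 only WT replicate 4 and KO replicate 2 could be left out without losing the call, and for Ndufb5 only KO replicate 2. Ndufa3 lost its call without WT replicate 3 (adjusted p 0.0509), as did Ndufa8 (0.0592).

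The 13 accessory subunits not given singly all rose, as the naming rule fixed. It gives singly those that did not pass and the 6 largest and 4 smallest rises. Of the matrix arm the 13 hold Ndufa2, Ndufa5, Ndufa7, Ndufa9, Ndufa12 and Ndufs6. Of the membrane arm they hold Ndufb2, Ndufb3, Ndufb4, Ndufb6, Ndufb10, Ndufc1 and Ndufc2. Their log2 fold changes ran from 0.39 for Ndufb2 to 0.63 for Ndufb10, with a median of 0.49 and adjusted p from 0.00312 to 0.0347. In all 13 each KO library was above each WT library, which held for 21% of all genes tested, passed or not. The 13 were limited to genes that passed as higher, so that share is not a like comparison. In all 13 KO replicate 3 was the highest. Of the 13, Ndufa2, Ndufa7, Ndufb2, Ndufb4, Ndufb6 and Ndufc2 lost the call without WT replicate 3, where their adjusted p ran from 0.052 for Ndufc2 to 0.066 for Ndufa2 and Ndufb2. All of these but Ndufb4 also lost it without WT replicate 1, with adjusted p from 0.0515 for Ndufb6 to 0.0835 for Ndufb2. Ndufa2 also lost it without WT replicate 2 or 4 (0.0536 and 0.0514), and Ndufb2 without WT replicate 4 (0.0619), KO replicate 1 (0.0534) or KO replicate 3 (0.0515).

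Not passing were 6 accessory subunits beside Ndufs8. Ndufs4, which holds the NADH-oxidizing part of the arm in place and whose loss in mice causes a fatal brain disease, had normalized counts of 862, 1149, 1011 and 1159 in WT and 1332, 1231, 1774 and 1179 in KO (log2 fold change 0.39, SE 0.15, adjusted p = 0.0644). Each KO library was above each WT library, by a narrow margin in KO replicate 4. Ndufa6, a LYR protein of the matrix arm that binds the acyl carrier protein, had 1089, 1192, 1182 and 1207 in WT and 1156, 1081, 1611 and 1278 in KO (log2 fold change 0.12, SE 0.12, adjusted p = 0.46). Its KO replicate 2 was below every WT library, its 95% interval was -0.16 to 0.40, and with library totals its log2 fold change was -0.055. Ndufa11, a membrane arm subunit related to the TIM17 translocase family, had 799.9, 969, 836 and 1122 in WT and 1085, 1103, 1307 and 888 in KO (log2 fold change 0.23, SE 0.14, adjusted p = 0.222). WT replicate 4 was above 3 of the KO libraries. Ndufb7, a cysteine-rich subunit of the intermembrane space side, had 1436, 1574, 1527 and 1452 in WT and 1627, 1717, 1901 and 1552 in KO (log2 fold change 0.18, SE 0.08, adjusted p = 0.103). Only KO replicate 4 fell within the WT range.

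The other 2 of these 6 are X-linked subunits of the membrane arm. Ndufb11 (chrX:20615326-20617619, minus strand) had normalized counts of 1494, 1623, 1586 and 1519.7 in WT and 1547, 1623, 2189.6 and 1700.3 in KO (log2 fold change 0.17, SE 0.11, adjusted p = 0.247), and KO replicate 3 alone was far above WT. Ndufa1 (chrX:37187588-37191163, minus strand) had 736, 939, 864 and 805 in WT and 817, 732, 979 and 701 in KO (log2 fold change -0.057, SE 0.12, adjusted p = 0.736), with a 95% interval of -0.34 to 0.22. WT and KO libraries of Ndufa1 were interleaved, and it was the only member with a mean log2 value below that of WT. Ndufb11 was at -0.0045 with library totals. The sign of Ndufa1 turned without WT replicate 2 or KO replicate 4 and with quantile normalization, where the value was 0.0072 or less.

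Of the 2 Nduf genes outside complex I, Ndufa4, now assigned to complex IV, had normalized counts of 2039, 2541, 2363 and 2661 in WT and 3415, 3279.7, 4846 and 3402 in KO (log2 fold change 0.63, SE 0.14, adjusted p = 0.00871). KO replicate 3 was the highest by far, and the other KO libraries were also above all WT libraries. Ndufa4l2, a related gene known to be induced by hypoxia, had 179.8, 333, 279 and 304 in WT and 377, 443, 281 and 336 in KO (log2 fold change 0.41, SE 0.21, adjusted p = 0.16). Its groups overlapped, and it was the only 1 of the 38 genes in which KO replicate 3 was not the highest library. Without WT replicate 1 its log2 fold change was 0.22.

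The Ndufaf genes encode assembly factors, each acting at its own step. Ndufaf1 (chr2:119655446-119662827, minus strand), a member of the complex that builds the membrane arm, had normalized counts of 272, 350.1, 307 and 337 in WT and 548, 453, 579 and 478 in KO (log2 fold change 0.70, SE 0.12, adjusted p = 0.00241). Ndufaf6, needed for the part of the matrix arm near the quinone site, had 89.9, 113, 105 and 89.9 in WT and 131, 144, 163 and 143 in KO (log2 fold change 0.55, SE 0.14, adjusted p = 0.0137). Ndufaf3, which acts with Ndufaf4 on the same part, had 307, 373, 361 and 374 in WT and 477, 479, 569 and 523 in KO (log2 fold change 0.53, SE 0.10, adjusted p = 0.00388). In each of these 3 genes every KO library was above every WT library, with KO replicate 3 highest. Ndufaf7, a methyltransferase, had 475, 489, 519 and 448 in WT and 637, 637, 658 and 720.4 in KO (log2 fold change 0.46, SE 0.08, adjusted p = 0.00281). Its highest library was KO replicate 4, and the groups were apart. Ndufaf2, a relative of Ndufa12 that acts late in assembly, had 195, 181, 165 and 190.1 in WT and 231, 214, 245 and 217 in KO (log2 fold change 0.31, SE 0.11, adjusted p = 0.0428). The groups were separated by a narrow margin.

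The other 3 Ndufaf genes did not pass. Ndufaf5, which hydroxylates an arginine of Ndufs7, had normalized counts of 148, 153, 148 and 165 in WT and 196, 170.1, 216 and 177 in KO (log2 fold change 0.30, SE 0.12, adjusted p = 0.0699), with no overlap between the groups. Ndufaf8, the partner of Ndufaf5, had 221, 202, 254 and 279 in WT and 309, 243, 314 and 268 in KO (log2 fold change 0.25, SE 0.14, adjusted p = 0.182), and its groups overlapped. Ndufaf4, the partner of Ndufaf3, had 346, 328, 344 and 299.6 in WT and 354, 378, 357 and 382 in KO (log2 fold change 0.16, SE 0.085, adjusted p = 0.163), and its KO libraries lay just above its WT libraries. In 7 of the 8 genes every KO library was above every WT library, which held for 21% of all genes tested. Ndufaf5 and Ndufaf4 are among the 7 though they did not pass. The count of 5 passing genes was 2 with values scaled to library totals, 4 without KO replicate 3 and 3 without WT replicate 4 and KO replicate 3 together. Ndufaf2 kept its call only without WT replicate 1 among the fits that left out 1 library, and its adjusted p in the others ran from 0.0553 to 0.124. Under library totals Ndufaf4 had a log2 fold change of -0.014.

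By library, the rise was present in each KO sample and largest in KO replicate 3. The median log2 difference of the 38 genes from the WT mean was -0.15, 0.10, -0.061 and 0.11 in WT replicates 1 to 4 and 0.45, 0.33, 0.78 and 0.36 in KO replicates 1 to 4. For the 8 Ndufaf genes it was -0.077, 0.01, 0.05 and 0.071 in WT and 0.39, 0.32, 0.47 and 0.39 in KO. KO replicate 3 was the highest library in 37 of the 38 genes and in 6 of the 8 Ndufaf genes, and WT replicate 1 was the lowest in 32 of the 38. The 36 subunits together took 0.173%, 0.213%, 0.189% and 0.215% of reads outside hemoglobin in WT and 0.256%, 0.235%, 0.302% and 0.257% in KO, so the groups did not overlap on this scale either. Counted over all reads, hemoglobin included, KO replicate 3 was at 0.247%, between KO replicates 2 (0.234%) and 1 (0.255%). KO replicate 3 was thus the highest library with hemoglobin left out of the total and not with it counted in.

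**Figure D3:**
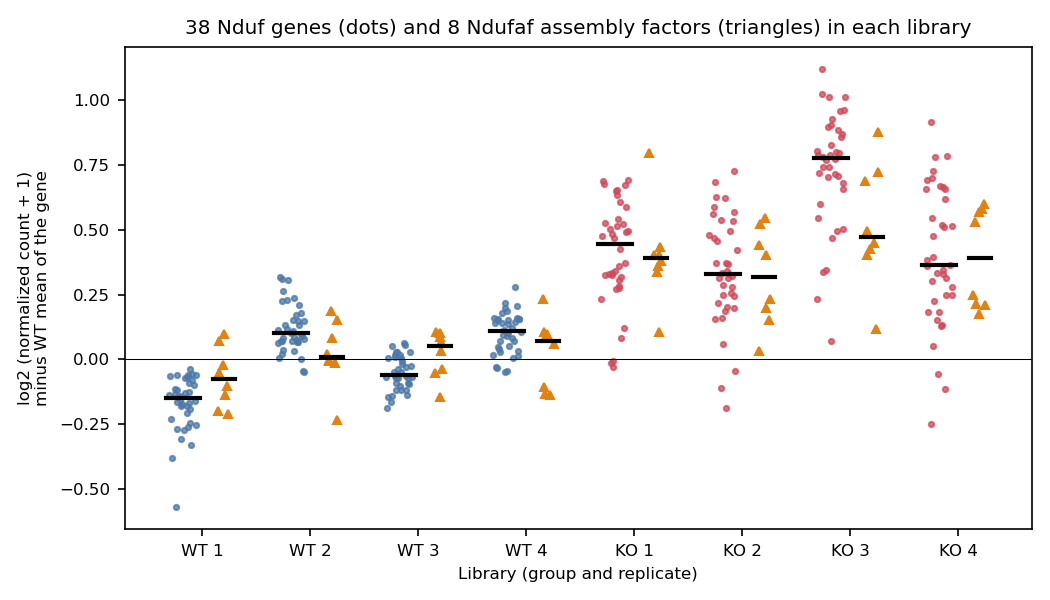
Log2 normalized count + 1 of each gene minus its WT mean, in each library, for the 38 Nduf genes (dots) and the 8 Ndufaf genes (triangles), with black bars at the medians. The medians of the 38 genes are between -0.15 and 0.11 in WT and between 0.33 and 0.78 in KO.

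Spread within KO was smaller without the same library. The coefficient of variation of the normalized count over the 4 libraries had a median over the 46 genes of 9.57% in WT and 14.5% in KO. It was 6.49% in KO without replicate 3. That library was the highest in most of these genes, so leaving it out tends to lower the value by construction. No WT library was left out beside it. Levels per length of the 36 subunits, as RPKM over annotated exons, ran in WT from 2.74 for Ndufb2 to 82.4 for Ndufa2. Their median was 30.4. Exons of all annotated isoforms were counted in the length, which lowers the values of genes with long rare isoforms. Across the 36 subunits, as a description, Spearman's rho of the log2 fold change was 0.25 with exon length, 0.35 with the WT normalized count and -0.069 with the WT level per length. These 36 points come from the same 8 libraries.

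Reads may be shared with copies or neighbours of several members, since how such reads were treated is not given in the sources used here. 7 members have a processed pseudogene of at least 95% identity over at least 100 bases that is itself in the table. Ndufb4c, identical to Ndufb4 over the aligned stretch, held reads equal to 71.1% of those of Ndufb4, BC002163 35.2% of those of Ndufs5 and Gm4459 33.5% of those of Ndufab1. With pseudogene reads added, the count of 30 was again 30. Exons of 19 members overlap those of another gene, 17 of them on the opposite strand. The longest overlap was 1955 bases, between Ndufaf2 and B230220B15Rik, which has no values in the deposited data. Among overlapping genes with reads it was 530 bases, between Ndufb5 and Mrpl47 (1834 reads). Ndufb1-ps, noncoding in the annotation and therefore no member, had a log2 fold change of 0.19 with adjusted p = 0.304.

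The core of the membrane arm is encoded in mitochondrial DNA, and it was also higher in KO. Of the 7 mt-Nd genes 6 rose, with a median log2 fold change of 0.61, while 20.2% of all genes tested rose. mt-Nd6, encoded on the other strand than the rest, had normalized counts of 9598, 13509, 10013 and 10059 in WT and 19718, 17754, 26636 and 25015 in KO (log2 fold change 1.04, SE 0.17, adjusted p = 0.002). mt-Nd5, a proton pump at the tip of the arm, had 43455, 62179.8, 47624 and 45793 in WT and 83891, 76439.9, 103934 and 95034 in KO (log2 fold change 0.86, SE 0.16, adjusted p = 0.00374). mt-Nd4, the proton pump next to it, had 63112, 89864, 65314 and 65250.3 in WT and 113585, 104781, 141637 and 127119 in KO (log2 fold change 0.79, SE 0.17, adjusted p = 0.00616). In all 3 each KO library was above each WT library, and WT replicate 2 was the highest of its group. The smallest differences were at mt-Nd1, next to the quinone site, with 42026, 57104, 46828 and 50526 in WT and 61464, 66319.5, 83577 and 58649.8 in KO (log2 fold change 0.45, SE 0.16, adjusted p = 0.0448), and at mt-Nd2, another proton pump, with 39348, 60640.2, 46850.3 and 44841 in WT and 61468, 62837, 76721 and 57619 in KO (log2 fold change 0.44, SE 0.16, adjusted p = 0.0572). For mt-Nd2, KO replicate 4 was below WT replicate 2, and it was the member that did not pass. mt-Nd4l and mt-Nd3 rose with log2 fold changes of 0.61 (adjusted p = 0.0101) and 0.58 (adjusted p = 0.037).

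The count of 6 ran from 4 to 7 over the fits that left out 1 library and was 4 with library totals. Over all genes tested, those called higher ran from 2707 to 3398 in these fits and were 1893 with library totals. Without KO replicate 3, 5 rose with a median of 0.55. mt-Nd1 kept its call only without WT replicate 2 or KO replicate 4, with an adjusted p of up to 0.112 in the other fits without 1 library. mt-Nd3 lost its call without WT replicate 1 (0.0905), WT replicate 3 (0.0863) or KO replicate 1 (0.0677). mt-Nd5 and mt-Nd6, as well as mt-Nd4 and mt-Nd4l, overlap by a few bases in the annotation, and the strand setting of the counting is not given in the sources used here.

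The balance of mitochondrial and nuclear transcripts was compared within each library. Summed mt-Nd counts were 4.09 to 5.33 times those of the 36 nuclear subunits in WT and 5.07 to 5.23 times in KO, ranges that overlap. Reads of the whole mitochondrial genome made up 2.73% to 3.63% of all reads in WT and 3.75% to 4.38% in KO.

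**Figure D4:**
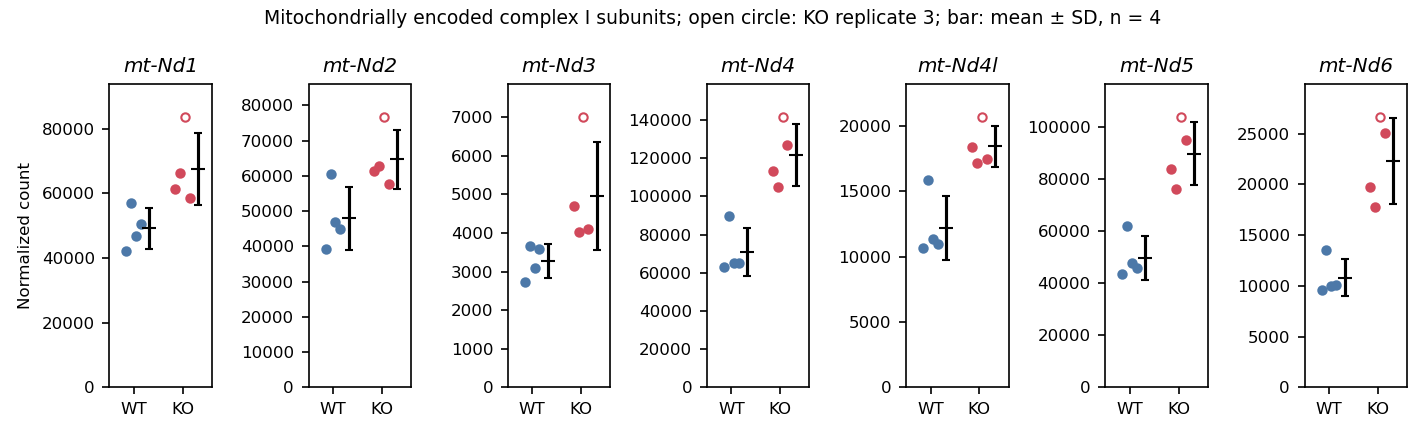
Normalized counts of the 7 mitochondrially encoded complex I subunits in each library, with mean ± SD (n = 4), each panel starting at 0. KO replicate 3 is drawn open, and WT replicate 2 is the highest WT library in all 7 panels; the groups overlap only for mt-Nd2.

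Assembly factors without an Nduf name gave a similar picture. The fixed list held 11 genes, of which 10 were tested: 7 rose and 3 did not pass, with a median log2 fold change of 0.46. Of all genes tested, 20.2% rose. Tmem70, which also serves the assembly of ATP synthase, had normalized counts of 639, 775, 704 and 791 in WT and 1327, 1076, 1337 and 1208 in KO (log2 fold change 0.77, SE 0.10, adjusted p = 0.000935). Tmem186 had 476, 513, 449 and 468 in WT and 797, 673, 841 and 806 in KO (log2 fold change 0.70, SE 0.091, adjusted p = 0.000842), and Ecsit had 416, 570.3, 452 and 606 in WT and 801, 764, 859 and 787 in KO (log2 fold change 0.67, SE 0.13, adjusted p = 0.00411). These last 2 act in the same membrane arm assembly complex as Ndufaf1, and in all 3 genes the groups were apart. Foxred1, Acad9, Tmem126b and Timmdc1 rose with log2 fold changes of 0.60, 0.50, 0.43 and 0.40. Not passing were Nubpl, which delivers iron-sulfur clusters, at 0.34 (adjusted p = 0.0605), and Dmac1 and Dmac2, which act on the distal membrane arm, at 0.23 (adjusted p = 0.12) and 0.08 (adjusted p = 0.654). With library totals the count of 7 was 4, and Dmac2 was at -0.093.

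Transcription factors and coactivators known to act on respiratory genes did not pass in either direction. Of 8 listed, 0 passed in limma, edgeR or DESeq2, with a median log2 fold change of 0.028. In limma 1, Pprc1, had an unadjusted p under 0.05, as lower. With edgeR and with DESeq2, 1 was higher and 1 lower at an unadjusted p under 0.05. Ppargc1a, the coactivator PGC-1α, had normalized counts of 60.5, 112, 99.3 and 66.5 in WT and 118, 99.1, 120.4 and 132 in KO (log2 fold change 0.51, SE 0.23, adjusted p = 0.0999), a low level with overlap between the groups. Tfam, which transcribes and packages mitochondrial DNA, had 562, 567, 574 and 573 in WT and 618, 611, 698 and 622 in KO (log2 fold change 0.16, SE 0.071, adjusted p = 0.101). Its KO libraries were all above its WT libraries, by about as much as the KO libraries differed among themselves, and with library totals its log2 fold change was -0.013. Pprc1, a relative of Ppargc1a, had the lowest value, at -0.34 (adjusted p = 0.0845). Nrf1, Gabpa, Esrra and Yy1, whose motifs were searched above, were at -0.14, 0.013, -0.096 and 0.044, and Ppargc1b at 0.088. The 95% interval for Ppargc1a, -0.0023 to 1.02, includes the median of the 38 complex I genes.

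Genes of the other respiratory complexes rose as well, where 20.2% of all genes tested rose and 21.5% fell. Complex II had 4 of 4 nuclear genes higher (median log2 fold change 0.48), led by Sdha, its flavoprotein, at 0.72. Complex III had 7 of 9 (median 0.51), and the 2 that did not pass were Uqcrb (0.32) and Uqcrh (0.33). Complex IV had 5 of 11 (median 0.43), from Cox8a at 0.79 to Cox5a at 0.094, and none of its listed genes fell. Complex V, the ATP synthase, had 12 of 15 higher (median 0.41) and 1 lower, Atp5g1, which encodes a copy of the ring subunit, at -0.29 (adjusted p = 0.0476). Differences between the complexes were not tested.

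**Figure D5:**
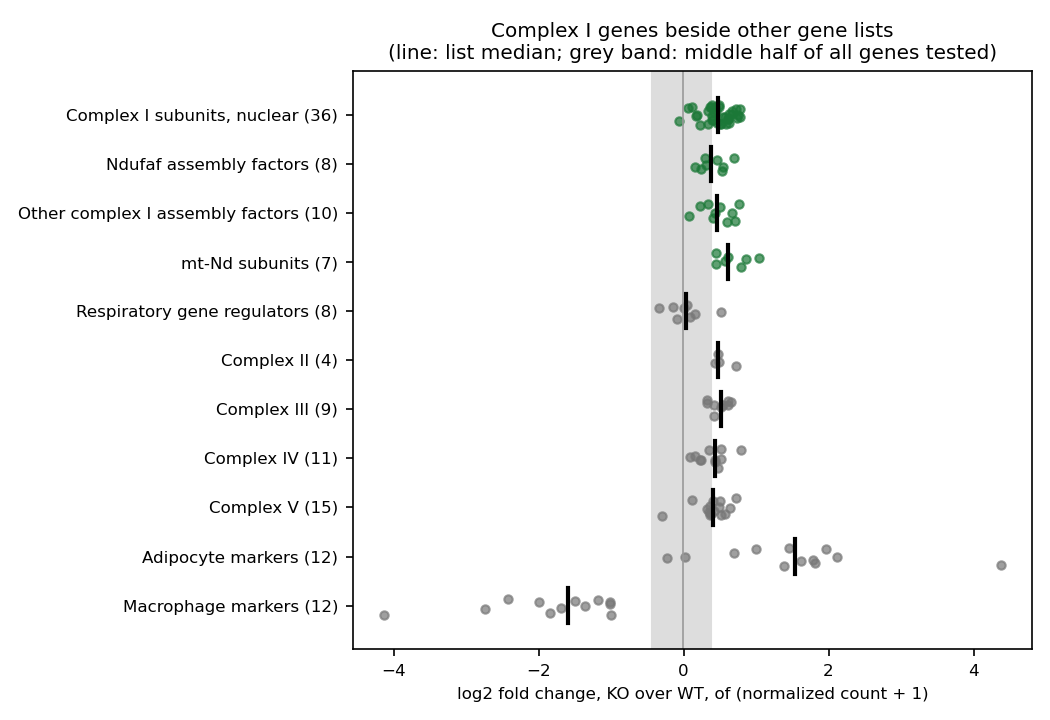
Log2 fold change, KO over WT, of each tested gene of the complex I lists (green) and of other lists (grey), with black lines at the medians and a grey band over the middle 50% of all genes tested. Medians are 0.47 for the 36 nuclear subunits, 0.61 for mt-Nd genes, 0.028 for the regulators, 1.54 for adipocyte markers and -1.6 for macrophage markers.

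Adipocyte markers rose and macrophage markers fell, both with larger medians than the complex I genes, while most tested muscle and brown adipocyte markers did not pass. Of 12 adipocyte markers 10 rose (median log2 fold change 1.54), among them Adipoq at 1.97 and Plin1 at 1.62, while Lep was at -0.23 (adjusted p = 0.75) and Cd36 at 0.016. Of 12 macrophage markers 12 fell (median -1.6), among them Adgre1 at -2.42 and Trem2 at -4.14. Over all genes tested, 20.2% rose and 21.5% fell. Of the epididymis markers 6 of 10 were tested and 4 fell. Crisp1, secreted by the epididymis, had normalized counts of 34594, 71824, 63747 and 26575 in WT and 5.75, 0, 37.6 and 3.64 in KO, and Ly6f was at 0 in every KO library. KO replicate 3 was higher than the other KO libraries in most of this list. The 4 untested markers, Lcn8, Lcn9, Cst11 and Rnase10, had 107, 55.9, 49.5 and 69.9 normalized counts there, against at most 8.43 in any WT and 6.84 in any other KO library. Lcn5, which did not pass, was also highest in KO replicate 3 (378), against 5.62 to 357 in WT and 0 in the other KO libraries. Markers of skeletal muscle, a tissue rich in complex I, had 2 of 6 tested genes higher, Myh1 and Myl1, with a sum between 642 and 2528 in WT and between 1705 and 3793 in KO. Ckm, untested, had normalized counts of 3.67, 2.89, 2.78 and 368 in WT and 1.15, 0, 0 and 0 in KO, so WT replicate 4 alone was well above 0. Of 4 tested brown adipocyte markers 1, Dio2, fell and the other 3 did not pass. Ucp1, which defines brown fat and was untested, had 32.1, 14.4, 4.64 and 233 in WT and 2.30, 5.13, 3.22 and 4.85 in KO, again with WT replicate 4 far above the rest. The count of 30 was 27 without WT replicate 4 and 25 without WT replicate 4 and KO replicate 3 together. The part of the cell type markers in the rise of the complex I genes was not tested.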

How the data were processed

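RNA of epididymal fat was measured in 4 WT and 4 KO libraries, grouped and numbered by the sample titles. The deposited values are a normalized count per gene, a signal equal to reads divided by a factor per library. Per the submitters' processing notes, the tools were STAR 2.7.7 and DESeq2, with GRCm38.p6 as the build and no role stated for either tool. Which counter, strand setting and annotation they used is not given in the sources used here. In 100% of cases, values above 0 were whole multiples of 1 step per library (tolerance 0.01 of a read), which gave back whole reads and factors of 0.8246 to 1.1702. Gene identifiers were matched to GENCODE M21, 24558 with and 24802 without their version, and 19 did not match.

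Genes that reached a normalized count of 10 in 4 or more libraries were tested in R 4.3.3 with limma 3.58.1, on log2 values after a pseudocount of 1. Group was the only term, and the moderation was robust with a variance trend. P-values were adjusted by Benjamini-Hochberg over all 17798 genes. Folds on this scale understate changes of low genes. The fit was tested on simulated data in which few genes changed, as many up as down. That run therefore does not bear on how the counts depend on scaling. Alternatives included edgeR 4.0.16 and DESeq2 1.42.0 on the recovered reads, other scalings, a replicate block and leaving out libraries.

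The members and lists were chosen with earlier results of these data known. The rule for named genes gives every library for the core subunits, the Ndufaf genes, Ndufa4, Ndufa4l2, subunits that did not pass, and the 6 largest and 4 smallest accessory rises, and the other 13 members by range. Genes of the other lists were picked as examples after their values were seen. The values of 1 member are counted in its groups and not reported here.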

Additional observations from a re-analysis of the deposited data

Results flagged for a closer look

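The highest and lowest library of each group were checked for distance from the rest, over 106 groups of 4 libraries (the members, the mt-Nd genes, WT and KO apart). A library counted as far from the others where its gap to the nearest, as a share of the group's range, exceeded Dixon's 95% critical value. This happened in 11 groups, and chance gives about 1 in 20.

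In 8 of the 11 the library was KO replicate 3, always as the highest of its group, and it is the library with 18% of its reads in hemoglobin genes. Its normalized count was 744.9 in Ndufc1 against 549.3 to 566.6 in the other KO libraries, 747.05 in Ndufa5 against 517 to 543 and 691.16 in Ndufb2 against 491 to 511. It was 2222.88 in Ndufc2 against 1571 to 1632, 2194.94 in Ndufa2 against 1482 to 1572 and 4845.63 in Ndufa4 against 3280 to 3415. It was 2739.91 in Ndufab1 against 2094 to 2160 and 2658.22 in Ndufv3 against 2175 to 2248. Since 1 library is behind all 8, these are not separate observations.

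In the other 3 groups WT replicate 2 was above the rest of WT, in mitochondrially encoded genes. Its normalized count was 89864.49 in mt-Nd4 against 63112 to 65314 in the other WT libraries, 15892.61 in mt-Nd4l against 10702 to 11350 and 13508.62 in mt-Nd6 against 9598 to 10059. It also had the highest share of reads from the mitochondrial genome among WT libraries, at 3.63%.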

How the results depend on the processing

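Over 20 alternatives, 18 of the 35 members that passed did so in each, and 5 of the 11 that did not pass passed in none. Of 920 gene results, 811 kept direction and side of the threshold, 90 lost the call, 10 gained it and 9 changed sign. With library totals the count of 30 was 16 and the Ndufaf count of 5 was 2. Over all genes, 1893 were then called higher, against 3592 as deposited. With hemoglobin left out of the totals, a choice made after seeing the data like that of adding pseudogene reads, the count of 30 was 18. Without WT replicate 4 and KO replicate 3 together the Ndufaf count was 3, and the count of 30 was 25. Leaving out 1 library gave 18 to 30 for the 38 genes, 4 to 5 for Ndufaf and 5481 to 6892 for all genes, where 7423 passed. The cause of these changes was not tested.

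Scaling moved the split of all passing genes: 48.4% were higher as deposited (3592 against 3831 lower), 28.8% with library totals, 34.8% with hemoglobin left out and 58.5% with quantile normalization, where the all-gene median log2 fold change was 0.098. The sign changed with library totals for Ndufaf4 (-0.0137), Ndufa6 (-0.0545), Ndufs8 (-0.1088), Ndufb11 (-0.0045), Dmac2 (-0.0928) and Tfam (-0.0125). It changed with hemoglobin left out for Ndufs8 (-0.0415) and Dmac2 (-0.0257), with quantile normalization for Ndufa1 (0.0017) and with library weights for Dmac2 (-0.0087). Over the fits that left out 1 library, Ndufs8 ran from -0.0264 (without KO replicate 3) to 0.1245, Ndufa1 from -0.1533 to 0.0072 (without KO replicate 4, and 0.001 without WT replicate 2) and Dmac2 from -0.0253 (without KO replicate 4) to 0.1591. None of these genes passed in the main test. Assembly factors of other names went from 7 to 4 with library totals.

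Replicate numbers are shared by the groups, and the labels do not say whether they pair animals. Deviations of same-numbered libraries from their group means correlated at -0.143, 0.051, -0.041 and 0.172. Such correlations over all genes cannot decide whether the samples are paired. With a replicate block 24 of the 38 genes, 4 of the 8 Ndufaf genes and 6266 of all genes passed. Depth limits the low genes most: the lowest member value was 89.9 normalized counts, for Ndufaf6 in WT.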
